A study of Mus musculus with 12 samples.

Results

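Vcam1, Nr1h3, Hpgd, Spic, Siglec1, Adgre1, Aif1, Csf1r, C1qa and C1qb are genes of resident marrow macrophages, and they were followed here in RNA from sorted hematopoietic stem cells. The 10 genes were chosen by name, as members of a resident macrophage program, from 27179 genes listed by gene number. The choice was made with earlier results of these data known. Each gene number was matched to its RefSeq mouse symbol. All 12 libraries came from C57BL/6J mice, with 1 library of total RNA per mouse and 3 mice per genotype. CE1, CE2 and CE3 (group CE) carried the Emu-myc transgene without Casp1 and Casp11. E1, E2 and E3 (group E) carried the transgene with both caspases intact. C1, C2 and C3 (group C) lacked Casp1 and Casp11 without the transgene, and WT2, WT3 and WT4 (group WT) were wild-type. In the transgene, Myc is driven by the enhancer of the immunoglobulin heavy chain, which acts chiefly in B-lineage cells, so a stem cell library need not carry high transgene expression. Casp1 and Casp11 (Casp4 in the annotation) encode inflammatory caspases. The labels state neither the age nor the sex of the mice, nor the gates of the sort.

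Resident macrophages of the bone marrow engulf aged red cells and the nuclei that erythroblasts expel, recycle the iron of heme, and form the centre of erythroblastic islands. SPIC, a transcription factor induced by heme, is needed for the red pulp macrophages of the spleen and for marrow macrophages that recycle iron, which also display VCAM1. NR1H3 (LXR alpha), a receptor for oxidised sterols, controls cholesterol export in macrophages. SIGLEC1 (CD169) and ADGRE1 (F4/80) are the surface proteins by which these macrophages are usually recognised.

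The libraries held 24529611 to 34065910 counts. C1 and C3 had a count for 22900 and 21247 genes, against 17310 to 18863 in the other 10 libraries. The Y-linked transcripts Ddx3y, Eif2s3y, Kdm5d and Uty summed to 91.4 to 121 CPM (the usual depth-scaled count, with each library's effective size as its depth) in CE1, CE2 and all C libraries and to at most 0.263 CPM in CE3 and in all E and WT libraries. The loss of the caspases therefore nearly coincides with male sex, and CE3 is the only knockout library without Y-linked transcripts. Casp1 (chromosome 9) checked the labels. It averaged 6.12 ± 0.563 CPM in CE and 42.1 ± 3.82 CPM in E, and 5.90 ± 0.699 CPM in C and 39.1 ± 9.0 CPM in WT (SD, n = 3 each).

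Nearly all the genes were present at low levels in the sorted cells. Per kilobase of the longest transcript, the median over the 12 libraries was 25.7 CPM per kb for Csf1r, 3.601 for C1qa, 3.47 for Aif1, 1.70 for C1qb and 1.25 for Nr1h3. It was 1.17 CPM per kb for Hpgd, 1.0 for Adgre1, 0.867 for Vcam1, 0.763 for Spic and 0.0926 for Siglec1. In that order, Csf1r lay above C1qa in every library and Siglec1 lay below Spic in every library, while each other pair of neighbours had overlapping ranges. The same scale gave 83.2 CPM per kb for Kit, 19.6 for the stem cell factor Hlf, 7.44 for Procr and 0.914 for Slamf1. Genes of multipotent and myeloid progenitors were high, with 115 CPM per kb for Flt3, 341 for Cd34 and 2556 for Mpo. Csf1r, the receptor for the growth factor CSF1, is also used by monocytes and myeloid progenitors. All 10 genes passed the filter on low counts, and 9 reached its level of 0.347 CPM in all 12 libraries. Siglec1 reached it in 1 of 3 CE, 3 of 3 E, 3 of 3 C and 2 of 3 WT libraries, with 4 to 55 counts per library.

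**Figure D1:**
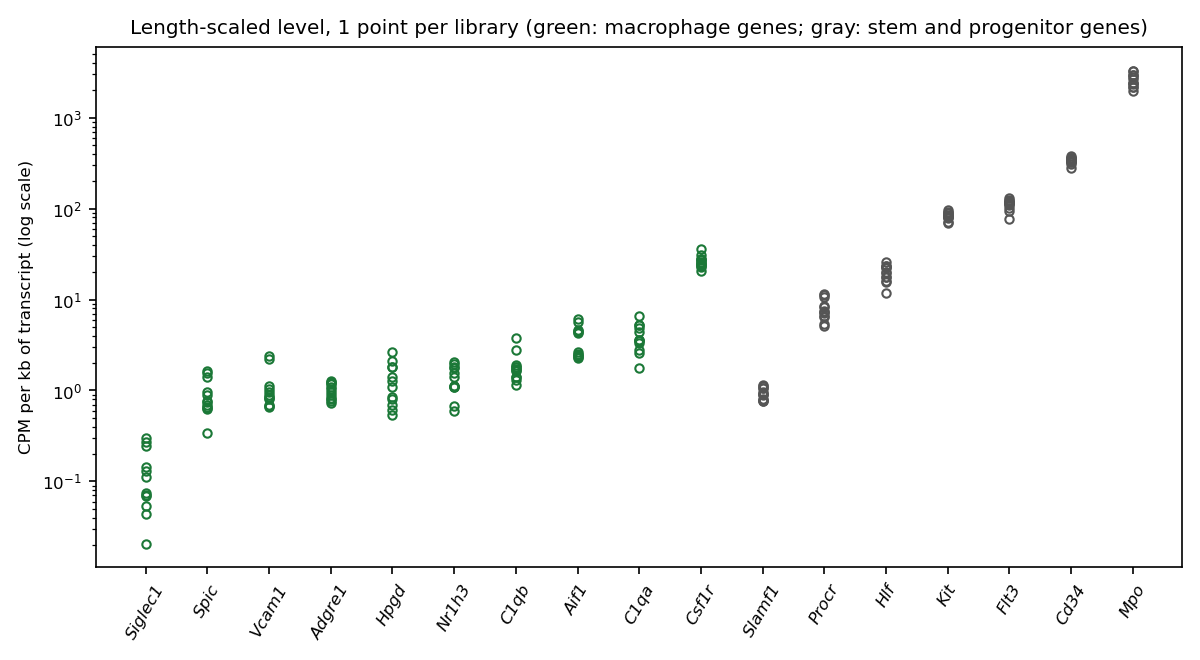
Level of each of the 10 macrophage genes (green) per kilobase of transcript (CPM per kb, log axis), with a point for each library of groups CE, E, C and WT. Gray points are the stem and progenitor genes Slamf1, Procr, Hlf, Kit, Flt3, Cd34 and Mpo. Csf1r lies above the other 9 macrophage genes in every library, and Siglec1 lies lowest of the 10.

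Without Casp1 and Casp11, 5 of the 10 genes were lower in Emu-myc cells. Hpgd was 2.92-fold lower in CE than in E, Vcam1 2.43-fold, Nr1h3 2.35-fold, Spic 2.19-fold and Aif1 2.03-fold lower. The CE libraries overlapped with WT for Vcam1 (2.82 to 4.60 CPM in WT), Spic (1.52 to 2.23 CPM) and, barely, Nr1h3 (2.20 to 3.58 CPM). For Hpgd and Aif1 every CE library lay below every WT library. Of the 14473 genes tested in CE against E, 1.58% passed in either direction and 1.11% passed as lower. The call requires a Benjamini-Hochberg adjusted p under 0.05 over all genes tested, from edgeR's two-sided quasi-likelihood test on all 12 libraries. The other 5 genes did not pass, and 9 of the 10 had an unadjusted p under 0.05, against 22.6% of all genes. The median log2 fold change of the 10 genes was -1.08, beside 0.00 for all genes tested. These calls depended on single libraries. Of the 10 genes, 5 passed with all 12 libraries, and 0 without any of C1, CE1, CE2, E1 or E2. The number was 1 without any of C2, C3, CE3 or E3, 3 without WT3, and 7 without WT2 or without WT4. Over all genes tested, 229 passed with all 12 libraries, 2 without CE1, 1099 without WT2 and 1578 without WT4. Fewer macrophages in the sorted cells and less of these transcripts per cell cannot be told apart in such libraries.

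Both transcription factors fell. Spic was at 1.59, 1.77 and 1.45 CPM in CE1, CE2 and CE3, against 3.21, 3.76 and 3.56 CPM in E1, E2 and E3. The 3 E libraries were close together, and all lay above every CE library. The log2 fold change was -1.13 (SE 0.27, edgeR adjusted p = 0.0481). Nr1h3 was at 1.18, 1.33 and 2.20 CPM in CE1, CE2 and CE3, against 3.08, 4.08 and 3.91 CPM in E1, E2 and E3. CE3 was the highest CE library and still lay below all E libraries. Nr1h3 had a log2 fold change of -1.23 (SE 0.27, edgeR adjusted p = 0.0403).

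Among the surface proteins Vcam1 fell, and Siglec1 and Adgre1 did not pass. Vcam1, the adhesion molecule that holds cells bearing the integrin VLA-4, was at 3.42, 3.30 and 2.76 CPM in CE1, CE2 and CE3, against 9.80, 8.98 and 4.23 CPM in E1, E2 and E3. E3 was nearer to the CE libraries than to E1 and E2, and the groups did not overlap. The log2 fold change was -1.28 (SE 0.28, edgeR adjusted p = 0.0403). Siglec1, which binds sialic acid on other cells, was at 0.277, 0.442 and 0.131 CPM in CE1, CE2 and CE3, against 1.75, 1.55 and 0.909 CPM in E1, E2 and E3. Every CE library lay below every E library at these low counts, with the largest fold change of the 10 genes and the widest error (log2 -2.30, SE 0.57, edgeR adjusted p = 0.0552). Adgre1, an adhesion receptor, was at 2.35, 3.09 and 2.63 CPM in CE1, CE2 and CE3, against 4.002, 3.54 and 4.15 CPM in E1, E2 and E3. The groups did not overlap, and the difference was small (log2 -0.53, SE 0.20, edgeR adjusted p = 0.144). Csf1r was at 112, 121 and 167 CPM in CE1, CE2 and CE3, against 127, 97.7 and 131 CPM in E1, E2 and E3. The groups overlapped, CE3 was the highest of the 12 libraries, and the log2 fold change was 0.18 (95% interval -0.15 to 0.50, edgeR adjusted p = 0.520).

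Hpgd and Aif1, which encode proteins of the cytosol, fell with small spread in CE. Hpgd, the enzyme that inactivates prostaglandins by oxidation, was at 1.35, 1.02 and 1.41 CPM in CE1, CE2 and CE3, against 3.04, 4.46 and 3.52 CPM in E1, E2 and E3. All 3 E libraries stood well above the CE libraries (log2 -1.54, SE 0.28, edgeR adjusted p = 0.0398). Aif1 (IBA1), an actin-binding protein of macrophages and microglia, was at 2.01, 2.14 and 2.20 CPM in CE1, CE2 and CE3, against 5.003, 4.08 and 3.83 CPM in E1, E2 and E3. The CE libraries were nearly alike and none overlapped with E (log2 -1.02, SE 0.20, edgeR adjusted p = 0.0398).

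The complement genes were lower in most CE libraries without passing. C1qa and C1qb encode chains of C1q, which opens the classical pathway and tags dying cells for engulfment. C1qa was at 3.74, 1.83 and 2.69 CPM in CE1, CE2 and CE3, against 5.42, 6.93 and 3.76 CPM in E1, E2 and E3. CE1 and E3 nearly met, with no overlap between the groups (log2 -0.97, SE 0.26, edgeR adjusted p = 0.0641). C1qb was at 2.08, 1.97 and 1.41 CPM in CE1, CE2 and CE3, against 3.002, 4.14 and 1.98 CPM in E1, E2 and E3. CE1 lay above E3, so the groups overlapped (log2 -0.75, SE 0.28, edgeR adjusted p = 0.133). In all, 8 of the 10 genes had every CE library below every E library. In that comparison 15.1% of all genes tested had groups that did not overlap in this direction.

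**Figure D2:**
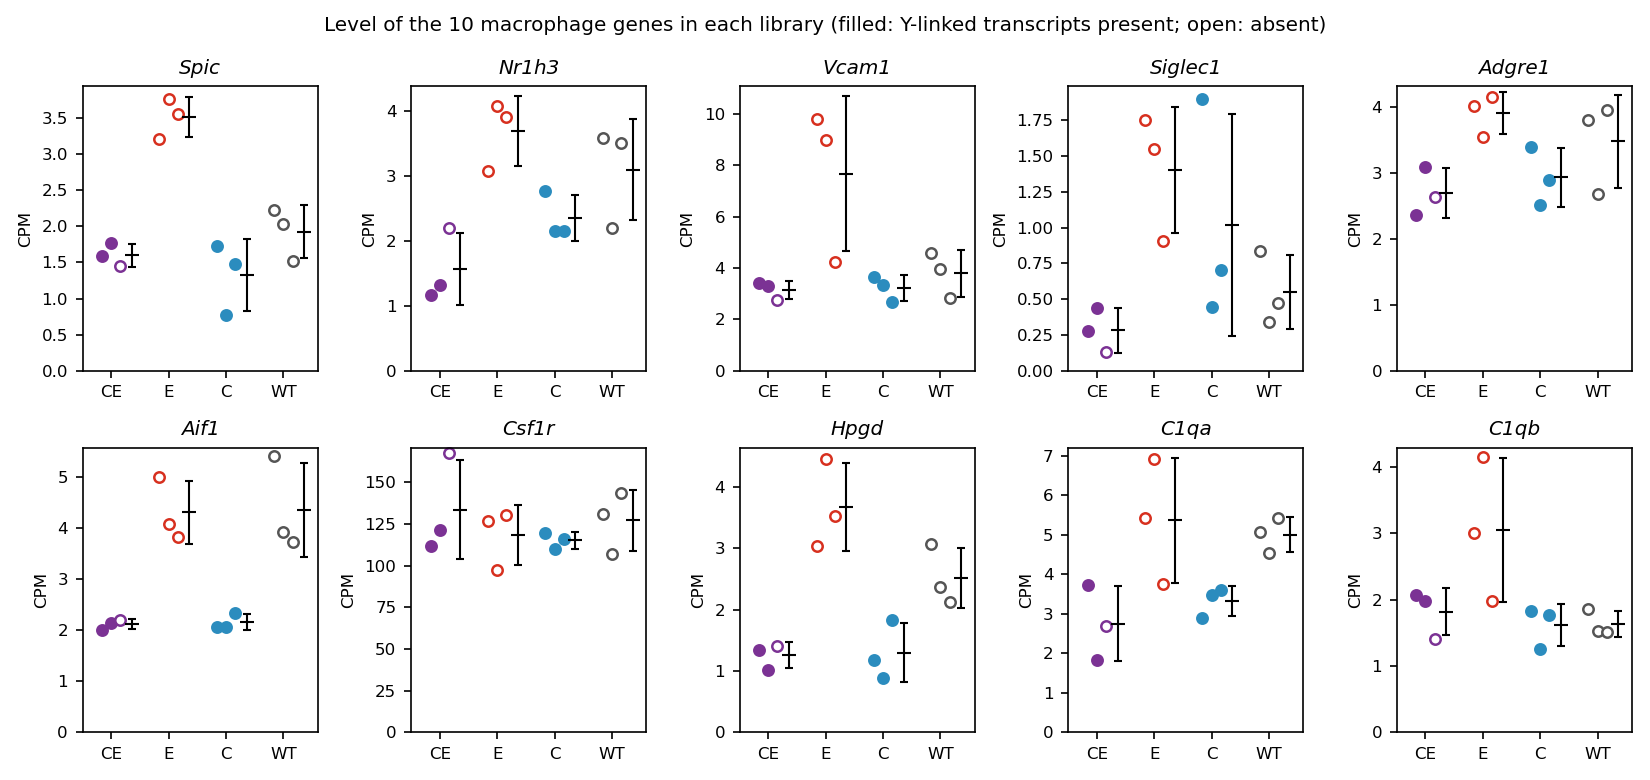
CPM of the 10 macrophage genes in each library of groups CE, E, C and WT, with the mean and SD of each group (n = 3); filled points mark libraries with Y-linked transcripts and open points those without. For Vcam1, Nr1h3, Hpgd, Spic and Aif1, which passed in CE against E, the open CE point is CE3 and lies below all 3 E points.

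Among the 6 libraries of CE and E, CE3 and the E libraries lack Y-linked transcripts. CE3 lay below every E library for each of the 5 genes that fell, which the lack of overlap given above already implies. A fit restricted to libraries without Y-linked transcripts, chosen after the data were seen, put CE3 against E at log2 -1.39 for Hpgd, -1.48 for Vcam1, -1.29 for Spic, -0.97 for Aif1 and -0.75 for Nr1h3. With CE3 as the only CE library in it, none of the 10 genes passed. A Y-linked term was also added to the fit of all libraries. Its values were -1.38 for Hpgd, -1.47 for Vcam1, -1.28 for Spic, -0.97 for Aif1 and -0.75 for Nr1h3. In that fit 0 of 10 passed (edgeR adjusted p of these 5 genes 0.124 to 0.227). CE is the only group with libraries of both kinds, so CE1 and CE2 against CE3 set this term. Its CE against E value is thus CE3 against E again, and not a second adjustment. Nr1h3 was the gene of the 5 whose log2 fold change moved most.

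RefSeq promoter sequences (GRCm38.p6, the assembly of the counts) were at hand for 5 of the 10 genes, with 2 start sites for Nr1h3. They show the bases before a start site of 3 genes that fell (Hpgd, Aif1 and Spic) and of C1qb, which did not pass. Each is the 250 bases upstream, written 5′ to 3′ on the strand of the gene, with the core GAGGAA of the myeloid factor PU.1 (TTCCTC on the other strand) in capitals. Hpgd lies on chromosome 8 (chr8:56294302-56294551, plus strand), Aif1 on chromosome 17 (chr17:35176053-35176302, minus strand), Spic on chromosome 10 (chr10:88683024-88683273, minus strand) and C1qb on chromosome 4 (chr4:136886201-136886450, minus strand).
Hpgd: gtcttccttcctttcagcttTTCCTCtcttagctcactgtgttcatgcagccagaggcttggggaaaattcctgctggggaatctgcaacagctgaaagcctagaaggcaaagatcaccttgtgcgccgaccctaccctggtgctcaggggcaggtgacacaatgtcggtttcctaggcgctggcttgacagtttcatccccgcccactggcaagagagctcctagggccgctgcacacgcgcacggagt
Aif1: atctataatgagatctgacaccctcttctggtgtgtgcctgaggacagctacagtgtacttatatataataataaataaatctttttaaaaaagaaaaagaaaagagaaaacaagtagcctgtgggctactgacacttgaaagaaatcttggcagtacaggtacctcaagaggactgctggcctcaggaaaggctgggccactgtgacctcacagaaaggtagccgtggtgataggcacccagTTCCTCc
Spic: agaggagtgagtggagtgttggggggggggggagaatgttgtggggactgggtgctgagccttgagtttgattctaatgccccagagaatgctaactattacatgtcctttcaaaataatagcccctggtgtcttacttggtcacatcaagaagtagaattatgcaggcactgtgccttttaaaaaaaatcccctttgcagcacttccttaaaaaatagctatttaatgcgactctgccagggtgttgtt
C1qb: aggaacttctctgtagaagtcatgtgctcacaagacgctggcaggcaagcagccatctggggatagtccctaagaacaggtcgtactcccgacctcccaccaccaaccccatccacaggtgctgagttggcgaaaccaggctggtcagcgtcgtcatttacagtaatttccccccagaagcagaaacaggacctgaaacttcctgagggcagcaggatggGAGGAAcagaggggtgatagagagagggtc
Searched on both strands, the PU.1 core occurred once each in the windows of Hpgd, Aif1 and C1qb. The annotated span of Aif1 reaches to 35176083, into its window, and the marked TTCCTC lies inside that span. The core was not in the windows of Spic or Nr1h3. Of 32851 promoters of the same length, 23.3% held it. The E-box CACGTG, which MYC with MAX can bind, was in none of the windows of these 5 genes and in 6.02% of all promoters. A match here is a string of letters and no measure of binding.

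Without the transgene, Aif1 fell with the loss of the caspases and the other 9 genes did not pass. Aif1 was at 2.07, 2.06 and 2.35 CPM in C1, C2 and C3, against 5.41, 3.92 and 3.73 CPM in WT2, WT3 and WT4. The C libraries lay close together, and none reached the WT range (log2 -1.01, SE 0.20, edgeR adjusted p = 0.0461). In C against WT, 0.656% of all genes tested passed, and 0.297% passed as lower. Hpgd was at 1.17, 0.894 and 1.83 CPM in C1, C2 and C3, against 3.07, 2.37 and 2.12 CPM in WT2, WT3 and WT4, with no overlap (log2 -0.96, SE 0.28, edgeR adjusted p = 0.0740). Hpgd passed with DESeq2 (adjusted p = 0.0293), with limma voom (adjusted p = 0.0449), without a filter on low counts (edgeR adjusted p = 0.0188) and without WT4 (edgeR adjusted p = 0.0349). C1qa was at 2.90, 3.49 and 3.599 CPM in C1, C2 and C3, against 5.08, 4.53 and 5.41 CPM in WT2, WT3 and WT4, also with no overlap (log2 -0.59, SE 0.25, edgeR adjusted p = 0.181). These 3 genes were the ones whose C libraries all lay below WT, a pattern that 13.9% of all genes showed in this direction. The other 7 genes had overlapping groups and log2 fold changes from -0.55 (Spic) to 0.87 (Siglec1). The Siglec1 value rested largely on C1 and was 0.0609 without it.

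Aif1 loses its call in C against WT with the Y-linked term (log2 -0.93, edgeR adjusted p = 0.493) or with C1 and C3 left out together (adjusted p = 0.810). It also loses it without any of 8 single libraries, CE1, CE2, E2, E3, C1, C2, C3 or WT2 (edgeR adjusted p 0.0540 to 0.246). Sex and caspase genotype cannot be told apart between C and WT, since every C library has Y-linked transcripts and no WT library does. The Y-linked term is set by CE1 and CE2 against CE3, and so cannot separate them there.

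The transgene with the caspases intact gave no call among the 10 genes. With edgeR, 0 passed in E against WT, where 0.0829% of all genes did, and 4 had an unadjusted p under 0.05, against 6.58% of all genes. DESeq2 and limma voom also called 0. Spic in E1, E2 and E3 (3.21, 3.76 and 3.56 CPM) lay above WT2, WT3 and WT4 (2.23, 2.03 and 1.52 CPM), with a log2 fold change of 0.86 (SE 0.26, edgeR adjusted p = 0.500). Siglec1 in E1, E2 and E3 (1.75, 1.55 and 0.909 CPM) lay above WT2, WT3 and WT4 (0.840, 0.338 and 0.476 CPM), with 1.34 (SE 0.54, edgeR adjusted p = 0.720). C1qb in E1, E2 and E3 (3.002, 4.14 and 1.98 CPM) lay above WT2, WT3 and WT4 (1.86, 1.52 and 1.52 CPM), with 0.90 (SE 0.28, edgeR adjusted p = 0.533). Groups that did not overlap in this direction were found for these 3 of the 10 genes and for 4.46% of all genes. Vcam1 in E1, E2 and E3 (9.80, 8.98 and 4.23 CPM) met the WT range of 2.82 to 4.60 CPM through E3, with a log2 fold change of 1.01 (SE 0.27, edgeR adjusted p = 0.382). The other 6 genes had log2 fold changes from -0.10 (Csf1r) to 0.55 (Hpgd), with overlapping groups.

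On the caspase knockout background the transgene gave no call either. With edgeR, 0 of the 10 genes passed in CE against C, where 0.207% of all genes did, and 2 had an unadjusted p under 0.05, against 5.14% of all genes. DESeq2 and limma voom called 0. Siglec1 at 0.277, 0.442 and 0.131 CPM in CE1, CE2 and CE3 lay just below C2 and C3 (0.447 and 0.707 CPM) and well below C1 (1.90 CPM). Its log2 fold change was -1.82 (SE 0.58, edgeR adjusted p = 0.566). It was the only one of the 10 genes whose groups did not overlap, and 7.86% of all genes lay apart in this direction. Nr1h3 at 1.18, 1.33 and 2.20 CPM in CE1, CE2 and CE3 overlapped with 2.76, 2.15 and 2.15 CPM in C1, C2 and C3 (log2 -0.58, SE 0.27, edgeR adjusted p = 0.969). The other 8 genes had log2 fold changes from -0.28 (C1qa) to 0.28 (Spic).

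The effect of the transgene was not shown to differ between the 2 backgrounds for any of the 10 genes. The test of that difference called 0 of 10 with edgeR, and 0 with DESeq2 and limma voom, where 0% of all genes passed with edgeR. Unadjusted p was under 0.05 for 3 of the 10 genes and for 2.11% of all genes. Those 3 were Siglec1 (log2 -3.16, SE 0.79), Vcam1 (log2 -1.04, SE 0.39) and Nr1h3 (log2 -0.84, SE 0.38), each with an edgeR adjusted p of 0.9997. For Aif1 the difference was -0.01 (95% interval -0.60 to 0.58). The other 6 genes had log2 differences from -0.73 (C1qb) to 0.32 (Csf1r), with Hpgd at -0.59, Spic at -0.58, C1qa at -0.38 and Adgre1 at -0.29. Comparisons that share libraries move together, since E enters both CE against E and E against WT, and C enters both CE against C and C against WT.

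**Figure D3:**
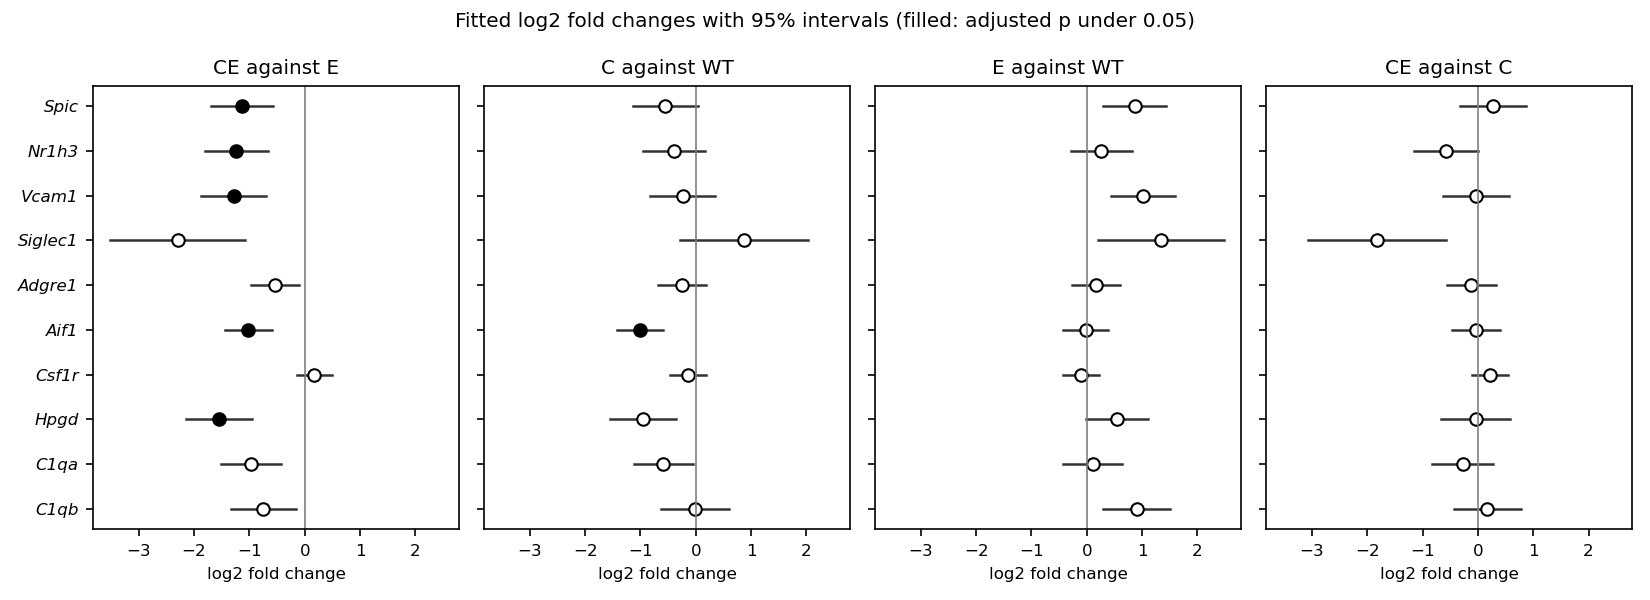
Log2 fold change of the 10 macrophage genes with its 95% interval in CE against E, C against WT, E against WT and CE against C, from the edgeR fit of all 12 libraries. In CE against E all genes but Csf1r lie below 0, and Vcam1, Nr1h3, Hpgd, Spic and Aif1 passed; in C against WT only Aif1 passed, and in the other comparisons none did.

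Other genes of resident macrophages were listed by what they do, and some of them fell in CE against E. Over all genes tested, 1.11% passed as lower there. Of 8 genes for heme and iron handling, 4 were lower in CE and 4 higher, and 1 passed, as lower. It was Slc40a1, which encodes ferroportin, the iron exporter, at 5.36, 5.71 and 5.42 CPM in CE1, CE2 and CE3, against 11.0, 14.7 and 10.3 CPM in E1, E2 and E3. All CE libraries lay far below E (log2 -1.13, SE 0.21, edgeR adjusted p = 0.0398). Of 13 tested genes for engulfment and surface recognition, 9 were lower in CE and 4 higher, and 1 passed, as lower. Cd5l, a secreted scavenger protein of macrophages, was at 0.380, 0.476 and 0.657 CPM in CE1, CE2 and CE3, against 3.25, 2.18 and 1.66 CPM in E1, E2 and E3. No CE library came near the E range (log2 -2.21, SE 0.34, edgeR adjusted p = 0.0227).

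Median log2 fold changes in CE against E were -0.10 for the heme and iron genes and -0.44 for engulfment and surface genes. None of the genes of both lists passed in C against WT. The receptor kinase Axl was at 7.92, 7.81 and 7.88 CPM in CE1, CE2 and CE3, against 12.4, 13.4 and 10.001 CPM in E1, E2 and E3, and did not pass (log2 -0.60, edgeR adjusted p = 0.0677). C1qc, the third chain of C1q, whose gene lies between C1qb and C1qa, was at 4.43, 2.17 and 2.83 CPM in CE1, CE2 and CE3, against 8.25, 9.55 and 3.79 CPM in E1, E2 and E3. The groups overlapped through CE1 and E3 (log2 -1.20, SE 0.35, edgeR adjusted p = 0.0754). Marco and Vsig4, receptors of other resident macrophages, had no count in 5 libraries each, and Clec4f in 2. None of those 3 genes was tested.

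**Figure D4:**
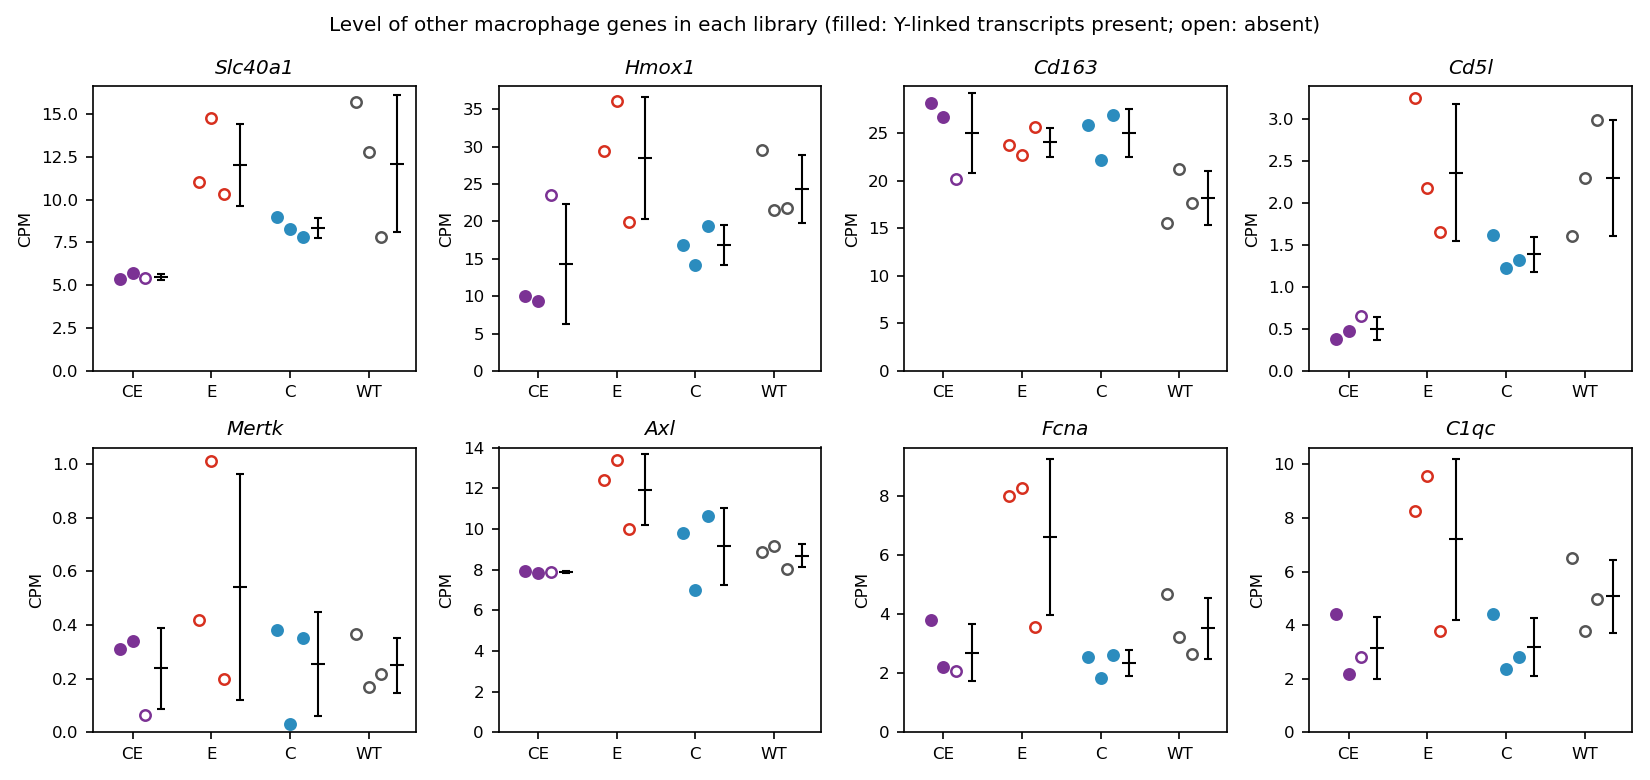
CPM of 8 further macrophage genes in each library of groups CE, E, C and WT, with the mean and SD of each group (n = 3); filled points mark libraries with Y-linked transcripts. Slc40a1 and Cd5l passed as lower in CE against E, while Cd163 overlapped between these groups.

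In the lists below, drawn up around partners, targets and pathways of the 10 genes, no gene passed as lower in CE against E. These lists do not hold every target of the 10 genes. Slc40a1 and Cd5l, which passed as lower, were listed above by what they do. None of 11 listed sterol receptor partners and targets passed in CE against E. The retinoid receptor Rxra, partner of NR1H3, had a log2 fold change of 0.54 (SE 0.15, edgeR adjusted p = 0.0737) and Nr1h2, its close relative, 0.45 (SE 0.14, adjusted p = 0.0943). None of 8 tested integrins and other partners of VCAM1 and SIGLEC1 passed, with 0.62 (SE 0.22, adjusted p = 0.119) for Itga9 and 0.28 (SE 0.12, adjusted p = 0.193) for Icam1. None of 7 tested genes around CSF1 signalling passed, with 0.45 (SE 0.16, adjusted p = 0.118) for Dok2 and 0.45 (SE 0.17, adjusted p = 0.141) for Cbl. In the prostaglandin list 1 of 13 genes passed. Ptgs2, which encodes the inducible cyclooxygenase that makes the precursor of the prostaglandins HPGD breaks down, rose in CE against E. It was at 5.78, 4.96 and 3.74 CPM in CE1, CE2 and CE3, against 1.83, 1.42 and 1.70 CPM in E1, E2 and E3 (log2 1.55, SE 0.26, edgeR adjusted p = 0.0306). The E libraries lay lowest of all 12, with C at 4.41 to 6.70 CPM and WT at 3.35 to 5.93 CPM. Of 7 tested complement genes, Cd59a, a membrane inhibitor of complement lysis, rose in CE against E by a log2 fold change of 0.80 (SE 0.14, edgeR adjusted p = 0.0398). It rose by 0.79 (SE 0.15, edgeR adjusted p = 0.0395) in C against WT.

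Markers of other cells moved with the comparison in part. Of all genes tested in CE against E, 49.6% were lower, 50.4% were higher and 22.6% had an unadjusted p under 0.05. Stromal and endothelial genes were lower in CE than in E for 8 of 9 tested, and 1 passed, the scavenger receptor Stab2 of sinusoidal endothelium (log2 -1.71, SE 0.35, edgeR adjusted p = 0.0398). Their summed level was 110 to 133 CPM in CE and 92.5 to 113 CPM in E, so the sum overlapped and did not follow the list's median of -0.83. Of the defining stromal genes, Lepr and Pdgfra had no count in 3 libraries each and Adipoq in 5. Monocyte genes summed to 758 to 947 CPM in CE and 681 to 910 CPM in E, with 8 of 12 lower in CE. The one that passed, Klf4, rose by a log2 fold change of 1.59 (SE 0.23, edgeR adjusted p = 0.0118) in CE against E and by 1.15 (SE 0.22, edgeR adjusted p = 0.0460) in C against WT. Erythroid genes were lower in CE than in E for 9 of 11 tested, with a median log2 fold change of -0.55, 4 at an unadjusted p under 0.05 and 0 passing with edgeR, and a summed level of 67.0 to 101 CPM in CE and 79.1 to 232 CPM in E. Of 15 stem cell genes 13 were higher in CE and 1 passed, Procr (log2 0.72, SE 0.17, edgeR adjusted p = 0.0462). None of the tested dendritic, neutrophil, B-lineage, T and natural killer or megakaryocyte genes passed in CE against E. With the transgene, B-lineage genes fell on both backgrounds. In CE against C 7 of 9 tested passed as lower, led by Cd79a (log2 -2.58, edgeR adjusted p = 0.00708), Igll1 (-2.43), Vpreb3 (-2.49), Vpreb1 (-2.27) and Pax5 (-2.64). In E against WT 2 of 9 passed as lower, Vpreb1 (log2 -2.30, edgeR adjusted p = 0.0161) and Igll1 (log2 -2.36, edgeR adjusted p = 0.0168). The part of any of these cells in the fall of the macrophage genes was not tested.

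The 10 genes other than Csf1r varied together across the 12 libraries. Summed without Csf1r, they made up 16.9 to 17.98 CPM in CE, 29.8 to 41.5 CPM in E, 16.9 to 21.4 CPM in C and 23.5 to 30.5 CPM in WT. Each gene's log2 CPM was set against the mean of the other 9, as a description over 12 libraries that share their depth and group. Pearson's r was 0.88 for Hpgd, 0.83 for Aif1, 0.82 for Spic, 0.80 for Adgre1, 0.78 for Nr1h3 and 0.75 for Vcam1. It was 0.66 for C1qa, 0.64 for C1qb, 0.63 for Siglec1 and -0.18 for Csf1r. With the group means removed it was 0.62 for Siglec1, 0.54 for Aif1, 0.44 for Spic, 0.43 for C1qb and 0.42 for Adgre1. It was 0.37 for Nr1h3, 0.36 for Hpgd, -0.02 for C1qa and -0.07 for Csf1r. The r of Vcam1 dropped to 0.20 with the group means removed.

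Among 11709 other genes, the 8 whose levels followed the mean of the 10 genes most closely over the 12 libraries were Ormdl1, Phospho2, Upf3a, Bpifc, Sdhaf3, Rida, Faim and Plpbp, with Pearson's r of 0.88 to 0.90. None of the 8 is in the macrophage lists. They were chosen for that likeness, which includes the low mean in CE and the high mean in E, so their own fold changes in that comparison are not given as results.

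The fold changes of the 5 genes that fell in CE against E kept their sign and most of their size when the fit changed. The calls depended on the fit. Leaving out libraries could not turn the sign, since every CE library lay below every E library for these 5 genes. Fits that left out only C or WT libraries could hardly move these values. Over 23 alternative fits the log2 fold change was -1.67 to -1.37 for Hpgd, -1.57 to -0.96 for Vcam1, -1.56 to -0.75 for Nr1h3, -1.29 to -1.06 for Spic and -1.10 to -0.90 for Aif1. Over all genes, DESeq2 called 1182 of 14473, limma voom 1392 of 14473 and the fit without a filter 1172 of 24429. The fit as reported called 229 of 14473. Of the 10 genes, DESeq2 called 6 as lower, limma voom 6 and the fit without a filter on low counts 7. Leaving out C1 and C3 together, or E1 and WT3 together, gave 0.

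**Figure D5:**
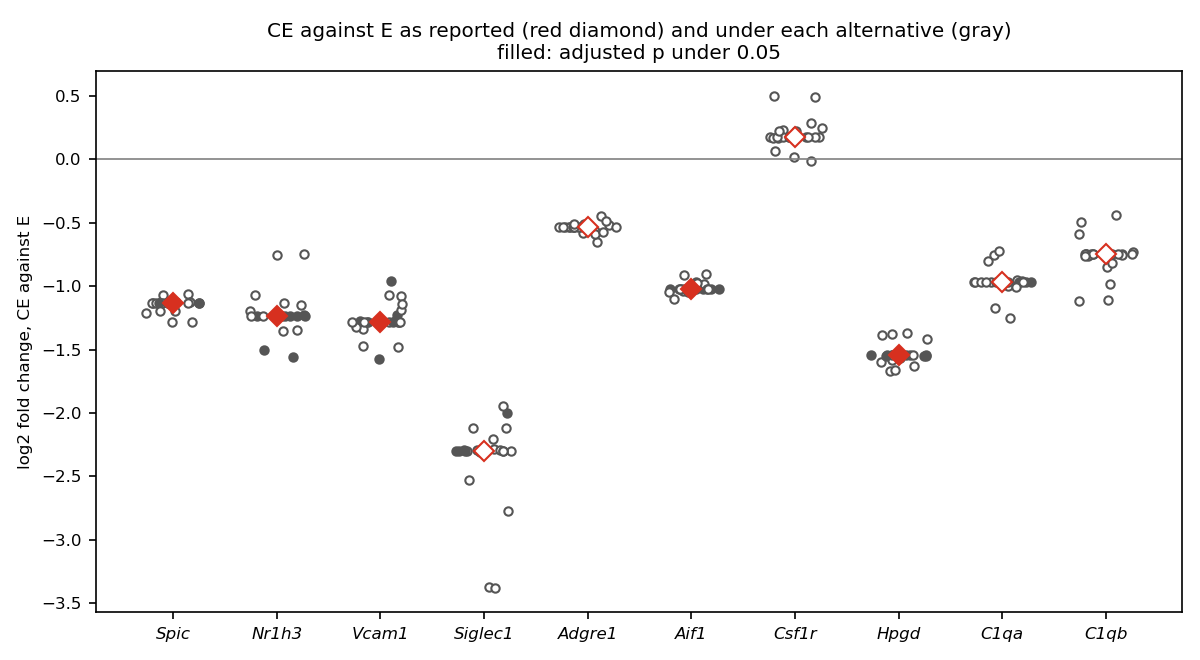
Log2 fold change of each of the 10 macrophage genes in CE against E as reported (red diamond) and under each alternative fit (gray point), filled where the adjusted p is under 0.05. Vcam1, Nr1h3, Hpgd, Spic and Aif1 stay below 0 in all 23 alternatives, with filled and open points mixed, and Csf1r lies about 0.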

How the data were processed

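The authors deposited raw counts per gene for the 12 libraries, whole numbers listed by gene number. The submitters' processing notes name STAR 2.5.3 and mm10. No source used here states the counter, its strand setting or a filter. Symbols came from RefSeq (GRCm38.p6) and matched 25275 of 27179 gene numbers. The 1904 others, 0.546 to 2.45% of a library's counts, stayed in the tests.

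All 12 libraries entered a single fit with edgeR 4.0.16 (R 4.3.3), with TMM factors, the filterByExpr filter by group (14473 genes kept) and quasi-likelihood tests. The SE of a fold change is its size over the square root of F. Adjusted p-values are Benjamini-Hochberg values over all genes tested, with a threshold of 0.05. The spread between mice carries the error, and the biological coefficient of variation was 0.139. CPM are the deposited counts over effective library size. Levels per kb use the longest GENCODE M21 transcript, since the RefSeq table at hand gives gene spans. Correlations used log2 CPM with a prior count of 2.

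All 10 genes are described in every comparison. From the other lists, up to 5 genes that passed are named per comparison, or, for lists around the macrophage genes, those with the smallest p in CE against E as values. A result from the list of macrophage transcription factors is not reported here. The 10 genes and all lists were chosen with earlier results of these data known. Alternatives (DESeq2 1.42.0, limma 3.58.1 voom, other scaling and filters, terms for replicate number or Y-linked transcripts, libraries left out) were run for the 10 genes. The scripts were tested on simulated data.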

Additional observations from a re-analysis of the deposited data

Results flagged for a closer look

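Siglec1 was marked by the opposite direction of the transgene on the 2 backgrounds. On the caspase knockout background every CE library (0.131 to 0.442 CPM) lay below every C library (0.447 to 1.90 CPM). With the caspases intact every E library (0.909 to 1.75 CPM) lay above every WT library (0.338 to 0.840 CPM). The log2 difference between these effects was -3.16 (SE 0.79, edgeR unadjusted p = 0.00118), and it did not pass over all genes tested (adjusted p = 0.9997). C1 held 55 counts of Siglec1, the most of the 12 libraries, and CE3 held 4, the fewest. Without any single library the difference was -3.63 to -2.36.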

How the results depend on the processing

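Of the 10 genes, those called in CE against E numbered 0 to 7 when 1 library was left out, and in C against WT 0 to 2. In CE against E, the number was 0 with the Y-linked covariate, without C1 and C3, without E1 and WT3, and among libraries without Y-linked transcripts. In C against WT it was 2 without a filter, with DESeq2 and with limma voom, and 0 with the Y-linked covariate, with only the groups compared and without C1 and C3. Without a filter, 1 gene was called in E against WT (Vcam1), in CE against C and in the difference of the transgene effects (Siglec1 in both). The all-gene counts moved too, with 2 to 1578 calls in CE against E when 1 library was left out, against 229. In C against WT they were 1554 without a filter, 1206 with DESeq2 and 1773 with limma voom, against 95. Without a filter they were 217 in E against WT, 203 in CE against C and 39 in the difference, of 24429 genes.

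No value that passed changed sign. Among the others, signs changed as follows, and the cause was not tested. In E against WT, Adgre1 was -0.0169 without E1 and WT3 and Csf1r 0.0455 with limma voom. In CE against C, Vcam1 was 0.0723 with limma voom, 0.0606 with the Y-linked covariate and 0.0602 among libraries with Y-linked transcripts. Without C1 and C3, Hpgd was 0.49, Adgre1 0.10 and Aif1 0.0390 there. In C against WT, Nr1h3 was 0.42, Siglec1 -0.56 and Csf1r 0.38 with the Y-linked covariate, Siglec1 -0.28 without C1 and C3, and C1qb 0.0228 with limma voom and 0.00279 with only the groups compared. In the difference, Spic was 0.16 without C1 and C3. Aif1 was 0.0257 without a filter, 0.11 with the replicate block, 0.0429 without C1 and C3 and 0.19 without E1 and WT3.

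With 1 library left out, log2 fold changes in E against WT were -0.12 to 0.18 for Aif1, -0.218 to 0.0228 for Csf1r and -0.12 to 0.30 for C1qa. In CE against C they were -0.141 to 0.0722 for Vcam1, -0.26 to 0.29 for Hpgd and -0.0618 to 0.0414 for Aif1. C1qb was -0.12 to 0.13 in C against WT, Csf1r -0.0162 to 0.29 in CE against E, and Aif1 -0.216 to 0.0857 in the difference.

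The labels do not say whether the replicate numbers pair the mice. Deviations from group means correlated at -0.24 to 0.17 between libraries of the same number, and at -0.26 to 0.28 between libraries of other numbers. With 3 libraries per group these values cannot show whether the mice were paired. With the replicate block, 7 of the 10 genes were called in CE against E and 1 in C against WT. Over all 14473 genes the block gave 1475 and 2045 calls, against 229 and 95 without it. Where leaving out C1 and C3 left 1 library in C, or the restriction by Y-linked transcripts left 1 in CE, that library was assumed to vary like the others. The Y-linked covariate is set by CE1 and CE2 against CE3, so its CE against E value also rests on CE3 alone in CE. Siglec1, at 4 to 55 counts, has the widest error of the 10 genes, and the stricter filter removed it.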
